A study of Mus musculus with 18 samples.

Results

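Mitf, Tfe3, Tfeb and Tfec are the 4 genes of the microphthalmia family of transcription factors, and all 4 were measured, each by 1 probe, among the 19084 genes named on the arrays. They were taken as a family by gene symbol, with earlier results of these data known. Probe intensities came from 18 single-dye arrays of C57Bl/6 mouse cells, in 6 groups of 3 arrays. Fresh basophils came from the bone marrow of mice given IL-3 complexed with anti-IL-3 and were purified 3 days later, and mast cells were grown from bone marrow for 4 weeks in 20 ng/ml of IL-3. Neither group has a genotype in the labels, and neither received 4-hydroxytamoxifen. Basophils cultured for 5 days in IL-3 at 20 ng/ml made up the remaining 4 groups, of the genotype Cebpa +/+ RosaYFP/creER (here wild type) or Cebpa f/f RosaYFP/creER (here floxed), each without the drug or with 100 nM 4-hydroxytamoxifen for 5 days. The drug activates the creER recombinase, which removes floxed Cebpa, and all 4 cultured basophil groups carry RosaYFP/creER. The labels give neither the promoter that drives creER nor the share of cells that lost Cebpa, and they do not say whether the 3 arrays of a group came from separate mice or cultures. The study asked how basophil and mast cell expression differ, and what in basophils is under the control of Cebpa, the gene of the transcription factor C/EBP-alpha.

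The proteins of this family are basic helix-loop-helix leucine zipper factors that bind E-box DNA as homodimers or as heterodimers with one another. MITF is best known from pigment cells and mast cells, where its loss in mutant mice leaves few and defective mast cells. TFEB and TFE3 move into the nucleus when nutrients are scarce and drive genes of lysosomes and autophagy, and TFEC is known mainly from macrophages and osteoclasts.

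The 6 groups carried the defining genes of their labels, with some exceptions. The 8 basophil markers summed to intensities of 147470 to 197373 on the 15 basophil arrays and 55382 to 59121 on mast cell arrays, where Il4 and Itga2 were at background. At background means, here and below, that all 3 arrays of a group read under 30. The 10 mast cell markers measured summed to 180145 to 185510 in mast cells, 85438 to 89649 in fresh basophils and 140748 to 144947 in treated floxed cells. The mast cell genes Tpsab1 and Mrgprb1 were at background in all 6 groups. Slc6a4, also on the mast cell list, averaged 62.7 in mast cells, 204 in fresh basophils and 1872 in untreated wild type basophils. Of the 10 markers 1 was higher and 5 lower in fresh basophils than in mast cells (limma, adjusted p under 0.05), where 40.6% of all probes passed. The sums lean on bright genes, and Cpa3 alone averaged 64323 in treated floxed cells. Markers of neutrophils (10 measured) summed to 97480 to 100849 in fresh basophils against 675 to 717 in mast cells, with S100a8 at background in both and Ngp and Retnlg at background in mast cells. Fewer cells of a type and less RNA per cell cannot be told apart in such bulk samples.

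Cebpa itself followed the labels. Its intensities were 2973, 2822 and 2539 in treated wild type cells against 69.1, 69.4 and 57.8 in treated floxed cells, close to the 56.8, 63.8 and 45.7 of mast cells. Untreated floxed cells read 1055, 935 and 959 against 2280, 2602 and 2226 in untreated wild type cells, a log2 difference of -1.25 (limma, adjusted p = 3.84e-07), so the floxed cells had less Cebpa RNA before any drug. Fresh basophils, at 2232, 2393 and 2105, overlapped the untreated wild type cells.

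The sequences upstream of the family's start sites are shown because the study removes a DNA-binding factor and because Mitf and Tfec changed most after it. In the RefSeq promoter table (GRCm38.p6) Mitf, at chr6:97807002-98021360 on the plus strand, has 3 start sites, which begin transcripts with different first exons. The single Mitf probe does not tell them apart here. Windows of 250 bases before each start were searched on both strands for TTGCNNAA, a C/EBP-type motif. The first Mitf window is printed only as far as the first base outside the annotated gene, as is the Tfec window. Capitals mark the match:

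Mitf, start 1, chr6:97806808-97807001, plus strand: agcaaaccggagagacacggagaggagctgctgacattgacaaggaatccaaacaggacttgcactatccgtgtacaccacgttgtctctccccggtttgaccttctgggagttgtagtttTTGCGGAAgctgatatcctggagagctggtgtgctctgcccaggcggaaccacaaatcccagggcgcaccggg
Mitf, start 2, chr6:97929567-97929816, plus strand: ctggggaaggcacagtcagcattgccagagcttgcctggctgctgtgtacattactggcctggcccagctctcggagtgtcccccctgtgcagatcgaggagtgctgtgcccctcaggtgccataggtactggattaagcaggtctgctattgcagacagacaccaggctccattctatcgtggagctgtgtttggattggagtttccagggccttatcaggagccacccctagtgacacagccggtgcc
Mitf, start 3, chr6:97991533-97991782, plus strand: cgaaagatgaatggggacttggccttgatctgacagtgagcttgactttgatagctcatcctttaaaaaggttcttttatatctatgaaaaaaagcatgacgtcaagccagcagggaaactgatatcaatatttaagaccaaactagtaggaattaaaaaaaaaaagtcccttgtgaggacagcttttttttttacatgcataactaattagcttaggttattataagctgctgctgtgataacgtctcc
Tfec, chr6:16898465-16898691, minus strand: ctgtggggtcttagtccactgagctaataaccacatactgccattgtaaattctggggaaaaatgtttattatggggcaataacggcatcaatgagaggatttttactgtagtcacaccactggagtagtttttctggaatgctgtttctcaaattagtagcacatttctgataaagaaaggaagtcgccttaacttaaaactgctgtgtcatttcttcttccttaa

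The capitals in the first Mitf window begin 129 bases before its start site. No other window of the family held the motif, among 3 for Mitf, 3 for Tfeb, 2 for Tfe3 and 1 for Tfec. Of all 32851 promoters in the table, 9.56% held it, so 1 match among these windows describes the letters and no more. Mitf and Tfec lie on the same chromosome, Tfeb at chr17:47737037-47792416 and Tfe3 at chrX:7762530-7775202.

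Mitf had the widest range of the family. Its normalized intensities were 5499, 4709 and 4748 in mast cells, 1804, 1785 and 1620 in treated floxed basophils, 570, 600 and 592 in untreated wild type, 458, 423 and 405 in treated wild type, 395, 396 and 415 in untreated floxed cells, and 150.4, 152 and 154.5 in fresh basophils. Mast cells stood above every basophil array and fresh basophils below every other array. Only treated wild type and untreated floxed cells, neighbours in that order, did not pass the test (log2 difference 0.089, adjusted p = 0.485), and 14 of the 15 pairs of groups passed.

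Tfec, the family member known from macrophages, had another order. It read 658.5, 688 and 644 in treated wild type basophils, 430, 440 and 437 in untreated wild type, 320, 326 and 293 in untreated floxed, 134, 147 and 141 in treated floxed, 89.6, 95.3 and 82.2 in fresh basophils, and 37.5, 48.4 and 40.3 in mast cells. No groups overlapped, and all 15 pairs passed the test. The lowest group, mast cells, lay only a little above the background limit of 30.

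Tfe3, which with TFEB answers nutrient supply, varied less. It read 657, 708 and 565 in treated wild type basophils, 473, 432 and 462 in untreated wild type, 447, 336 and 422 in untreated floxed, 331, 316 and 366 in treated floxed, 235, 259 and 247 in fresh basophils, and 207, 221 and 252 in mast cells. Along that order the 2 wild type groups passed the test, untreated wild type and untreated floxed did not (adjusted p = 0.338), nor did untreated and treated floxed (adjusted p = 0.185), nor fresh basophils and mast cells (adjusted p = 0.460). Of the 15 pairs 12 passed.

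Tfeb, the best known switch for lysosomal genes, was barely measured. Its 18 values ran from 6.22 to 44.7, and 2 arrays reached 30, one of mast cells and one of treated wild type cells. It was at background in 4 of the 6 groups, and none of the 15 pairs passed the test (limma, adjusted). Its adjusted p-values over the comparisons below ran from 0.211 to 0.992, so a difference in Tfeb was not detectable at this signal. The mean intensity of Mitf over the 18 arrays stood at percentile 88.8 of all named genes, Tfe3 at 74.0, Tfec at 69.9 and Tfeb at 33.3, which ranks probes and not amounts of RNA.

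**Figure D1:**
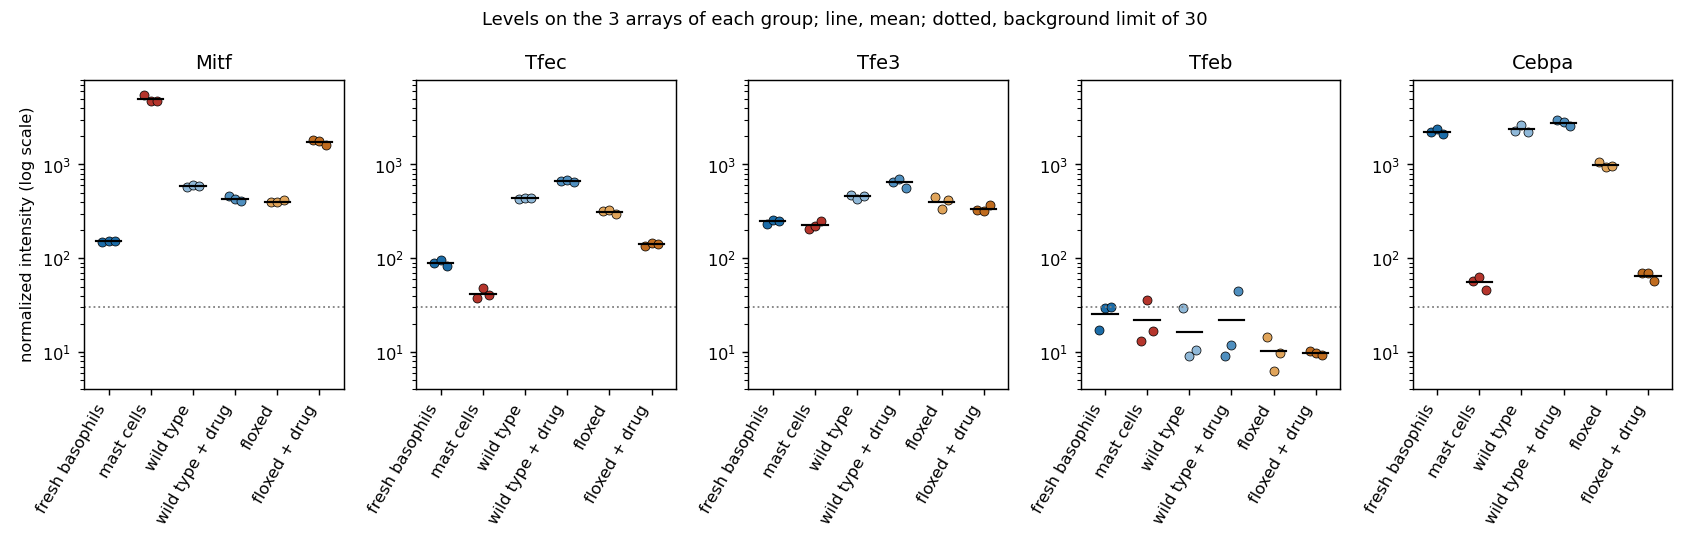
Normalized intensity (log scale) of Mitf, Tfec, Tfe3, Tfeb and Cebpa on each array of the 6 groups, with a line at each group's mean of 3 arrays and a dotted line at the background limit of 30. Mitf was highest in mast cells, at 4709 to 5499, and second in treated floxed basophils, at 1620 to 1804, the 2 groups in which Cebpa was between 45.7 and 69.4.

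In fresh basophils against mast cells, Mitf was lower and Tfec higher, while Tfe3 and Tfeb did not pass the test. That is 2 of 4 members, where 40.6% of all 26423 probes, and 64.0% of the 11434 genes with a mean intensity of 30 or more, passed. Mitf averaged 152 ± 2.06 (SD, n = 3) in fresh basophils and 4985 ± 445 (SD, n = 3) in mast cells, 29.6-fold lower (log2 fold change -4.89, SE 0.081, adjusted p = 1.14e-17). Tfec was 1.81-fold higher in fresh basophils, at 89.0 ± 6.60 against 42.1 ± 5.66 (SD, n = 3 each; log2 0.86, SE 0.084, adjusted p = 2.12e-07). The Tfe3 difference was 0.12 on the log2 scale, with a 95% interval from -0.12 to 0.36, and without normalization between arrays it became 0.65 (adjusted p = 5.28e-05). Freshness and 4 weeks of culture cannot be told apart from cell type in this comparison.

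Cultured wild type basophils, which share the IL-3 medium with mast cells but not the length of culture, differed from them in 3 of 4 members. The background here was 39.2% of all probes and 63.9% of genes with a mean of 30 or more. Mitf, at 587 ± 15.7 (SD, n = 3), was 8.27-fold lower than in mast cells (log2 -3.05, SE 0.081, adjusted p = 6.83e-15). Tfec, at 436 ± 5.19 (SD, n = 3), was 7.81-fold higher (log2 2.96, SE 0.084, adjusted p = 1.56e-14). Tfe3, at 456 ± 21.0 (SD, n = 3), was 1.95-fold higher (log2 0.96, SE 0.11, adjusted p = 1.88e-06).

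All 3 members above background were lower in fresh than in cultured wild type basophils, where 34.9% of all probes passed, 17.3% of all probes as lower, and 59.1% of genes with a mean of 30 or more. The log2 differences were -1.84 for Mitf (adjusted p = 1.12e-11), -2.11 for Tfec (adjusted p = 3.26e-12) and -0.84 for Tfe3 (adjusted p = 1.07e-05). The genotype of the fresh cells is not in the labels. Of 10 neutrophil markers 7 were higher and 1 lower in fresh than in cultured cells, with cultured sums of 24607 to 26973. All 6 eosinophil markers (median log2 2.90) and all 5 erythroid markers (median log2 1.87) were higher in fresh cells. Of the erythroid markers Alas2, Slc4a1 and Epor were at background in cultured cells. Of 6 megakaryocyte markers 5 were lower and none higher in fresh cells (median log2 -0.85). The part of these cells in the family's values was not tested. Since Tfec is a macrophage gene elsewhere, macrophage markers (11 measured) are given beside it. In fresh over cultured wild type cells 8 were higher and 3 lower (median log2 0.57). Vcam1 fell in culture from 14322 to 840 and C1qa from 9155 to 1628, while Adgre1, Cd68 and Mrc1 rose, as Tfec did, from 1154 to 3382, 663 to 2643 and 1614 to 2549. In cultured wild type cells over mast cells 9 of the 11 were higher and 1 lower (median log2 3.78); the lower one was Cx3cr1, at 18693 in mast cells, and C1qa, C1qb, Mrc1 and Csf1r were at background there. Summed intensities were 34839 to 36566 in fresh, 15428 to 16750 in cultured wild type and 20462 to 22913 in mast cells, set largely by these few bright genes. The part of macrophages in the Tfec level was not tested.

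Loss of Cebpa was read from treated floxed over treated wild type cells, both exposed to the drug. Mitf rose and Tfec and Tfe3 fell, 3 of 4 members, where 30.7% of all probes and 52.6% of genes with a mean of 30 or more passed. Mitf was 1736 ± 101 against 429 ± 26.8 (SD, n = 3 each), 3.94-fold higher (log2 1.98, SE 0.081, adjusted p = 1.29e-11). Tfec was 140.4 ± 6.46 against 663 ± 22.5 (SD, n = 3 each), 4.34-fold lower (log2 -2.12, SE 0.084, adjusted p = 8.60e-12). Tfe3 was 338 ± 26.0 against 643 ± 72.4 (SD, n = 3 each), 1.86-fold lower (log2 -0.89, SE 0.11, adjusted p = 9.40e-06). Floxed and wild type arrays did not overlap for any of these 3 genes. Markers of other cells moved in the same comparison. Of 11 macrophage markers 9 were lower and 2 higher in treated floxed cells (median log2 -1.47; sums of 13524 to 13783 against 16614 to 17265; none at background). Of 10 neutrophil markers 8 were lower and 1 higher (median log2 -1.83; sums of 3273 to 3787 against 13372 to 13819; Ngp, S100a8 and Elane at background in treated floxed cells, S100a8 in both). Of 6 eosinophil markers 3 were higher and 3 lower (median log2 -0.062), with Prg2 up from 3099 to 10555 and Siglecf down from 158 to 46.7; their sums were 10859 to 11161 against 3746 to 3994, with Il5ra at background in treated floxed cells. The part of these cells in the family's values was not tested.

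Set against untreated cells of the same genotype, the drug moved Mitf and Tfec in opposite directions in the 2 genotypes. In floxed cells, where 19.6% of probes and 34.1% of genes with a mean of 30 or more passed, Mitf rose 4.19-fold (log2 2.07, adjusted p = 1.57e-11) and Tfec fell 2.10-fold (log2 -1.07, adjusted p = 8.56e-08). Tfe3 moved by -0.23, with a 95% interval from -0.47 to 0.0071 and an adjusted p of 0.185, and it passed the test without untreated floxed replicate 2 (-0.35, adjusted p = 0.0400). In that comparison 6 macrophage markers were higher and 2 lower (median log2 0.45). The 2 lower were Adgre1, from 6139 to 1636, and Csf1r, from 519 to 327. The part of macrophages in the Tfec change was not tested. In wild type cells, which carry creER but no floxed Cebpa, 21.3% of probes and 37.9% of such genes passed. There Mitf was 1.36-fold lower (log2 -0.44, adjusted p = 8.11e-04), Tfec 1.50-fold higher (log2 0.59, adjusted p = 8.76e-05) and Tfe3 1.39-fold higher (log2 0.48, adjusted p = 0.00544). The Mitf call was lost with median scaling (-0.34, adjusted p = 0.146) and the Tfe3 call without normalization (0.27, adjusted p = 0.0757).

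The test of the difference between those drug effects, in which 12.6% of probes and 22.7% of genes with a mean of 30 or more passed, gave 2.51 for Mitf (SE 0.11, adjusted p = 4.53e-10), -1.66 for Tfec (SE 0.12, adjusted p = 9.17e-08) and -0.71 for Tfe3 (SE 0.16, adjusted p = 0.00665) on the log2 scale. The Tfe3 value was -0.46 without normalization (adjusted p = 0.0506). Untreated floxed and wild type cells already differed, with 15.8% of probes past the test, 7.27% as lower, and 28.3% of genes with a mean of 30 or more. Mitf was lower in untreated floxed cells by a log2 difference of -0.53 (adjusted p = 1.83e-04) and Tfec by -0.46 (adjusted p = 9.24e-04), while Tfe3 gave -0.18 with a 95% interval from -0.42 to 0.055. Macrophage markers were also lower in untreated floxed cells, 9 of 11 with 1 higher (median log2 -1.34), and their part was not tested. Both calls were lost with median scaling, at -0.33 for Mitf (adjusted p = 0.167) and -0.26 for Tfec (adjusted p = 0.309).

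Treated floxed basophils remained apart from mast cells in 3 of 4 members, with 35.4% of probes and 58.2% of genes with a mean of 30 or more past the test. Mitf was 2.85-fold lower than in mast cells (log2 -1.51, adjusted p = 1.33e-10), Tfec 2.70-fold higher (log2 1.43, adjusted p = 4.33e-10) and Tfe3 1.46-fold higher (log2 0.55, adjusted p = 9.48e-04). Mitf in treated floxed cells thus lay between wild type basophils and mast cells, as did Tfec.

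**Figure D2:**
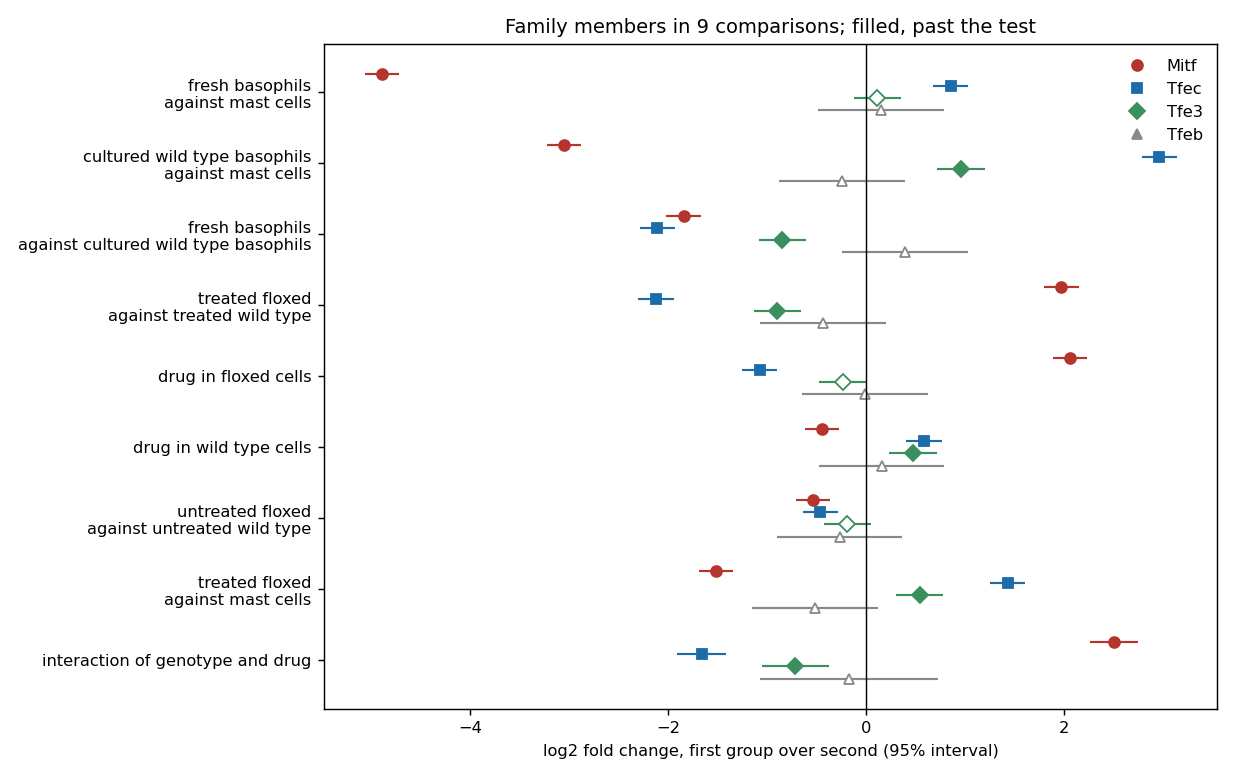
Log2 fold change, first group over second, with its 95% interval for Mitf, Tfec, Tfe3 and Tfeb in 8 comparisons of groups and, at the bottom, the difference between the drug effects in floxed and wild type cells. Filled symbols passed the test (limma, adjusted p under 0.05). In fresh basophils against mast cells Mitf lies at -4.89 and Tfec at 0.86, and in treated floxed over treated wild type cells they lie at 1.98 and -2.12.

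Across the 18 arrays the genes most like Mitf, among 5845 with a range of group means of at least 1 log2 unit, were Lpar1 (Pearson r = 0.985), Rapsn (0.984), Tpsb2 (0.984), 0610012G03Rik (0.983) and Rprm (0.981). Tpsb2 encodes a mast cell tryptase and Lpar1 a receptor for lysophosphatidic acid. Least like it were Gpr183 (-0.989), Itga2 (-0.983), Gsta4 (-0.981), Rasgrp2 (-0.978) and Galns (-0.977), of which Itga2 encodes the integrin chain CD49b used to stain basophils. The genes most like Tfec were Slc6a4 (0.986), the serotonin transporter, Tnfrsf23 (0.985), F2rl2 (0.983), F10 (0.982) and Grina (0.982), and those most like Tfe3 were Mettl9 (0.966), Cry2 (0.963), Lpgat1 (0.961), Dhx58 (0.960) and Scd1 (0.958). The 18 arrays form 6 groups of 3, so these r values largely describe 6 levels rather than 18 independent points.

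Upstream of the family, 18 of 20 listed regulators of MITF transcription or activity were measured, Cebpa among them. In fresh basophils against mast cells 4 were higher and 5 lower, against wild type cultures 7 were higher and 4 lower than in mast cells, and in treated floxed over treated wild type cells 3 were higher and 7 lower. Of all probes 40.6%, 39.2% and 30.7% passed in these 3 comparisons, and of genes with a mean of 30 or more 64.0%, 63.9% and 52.6%. Their median log2 fold changes were -0.045, 0.099 and -0.18, beside -0.044, -0.045 and -0.0041 for all probes; with genes at background set to their bounds they were 0, 0 and -0.034. One of the 7 higher than in mast cells, Lef1, was at background in both groups. Kit, the stem cell factor receptor whose signal activates MITF protein, was, like Mitf, highest in mast cells and treated floxed cells. It read 16726, 16201 and 16928 in mast cells, 13334, 15106 and 12227 in treated floxed, 4430, 4586 and 5225 in treated wild type, and 260, 280 and 300.1 in fresh basophils. No array of one of these groups overlapped another. Kit was 1.51 higher on the log2 scale in treated floxed than in treated wild type cells (SE 0.095, adjusted p = 2.64e-09).

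Tal1, a partner of GATA factors, also averaged most in mast cells (25091) and treated floxed cells (26459), which did not pass the test against each other, and least in fresh basophils (5755). It was lower in fresh basophils than in mast cells (log2 -2.12, adjusted p = 1.33e-12) and higher with loss of Cebpa (log2 0.52, adjusted p = 1.32e-04), and the drug effect in floxed cells exceeded that in wild type cells by 0.52 (adjusted p = 0.00767). Cebpb, Ctnnb1 and Gata2 had other orders. Cebpb, a relative of Cebpa, averaged 117 in mast cells and 2025 in treated wild type cells, and was lower by a log2 difference of -0.81 in treated floxed cells (SE 0.12, adjusted p = 4.73e-05). Ctnnb1, beta-catenin, which drives Mitf in pigment cells, was also lower there (log2 -1.06, SE 0.078, adjusted p = 1.78e-08). Set against untreated floxed cells, however, the drug raised Cebpb from 672 to 1155 (log2 0.77), and Ctnnb1 did not pass the test (log2 0.030). The difference between the drug effects in the 2 genotypes was -0.30 for Cebpb, not past the test. For Ctnnb1 it was -0.59 (limma, adjusted p = 0.00175). Gata2, which activates Mitf in mast cell precursors, was highest in treated wild type cells at 13396 and lowest in mast cells at 6750, the group with the most Mitf. Pax3 and Lef1, drivers of Mitf in pigment cells, were at background in all 6 groups.

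Genes reported to depend on MITF in mast cells followed its order in part. Of 14 measured of 16 listed, 11 were lower and 2 higher in fresh basophils than in mast cells (median log2 -1.91, beside -0.044 for all probes), and the counts were the same for cultured wild type basophils (median -1.45, beside -0.045). One of the 11 in each, Mcpt9, was at background in both groups. In treated floxed over treated wild type cells 8 were higher and 1 lower (median 0.80, beside -0.0041). Of all probes 40.6%, 39.2% and 30.7% passed in these 3 comparisons, and 64.0%, 63.9% and 52.6% of genes with a mean of 30 or more did. Untreated floxed cells had 5 lower and none higher than wild type, where 15.8% of all probes passed, and 2 lower with median scaling. For the drug in floxed cells 9 were higher and 1 lower (median 1.48), where 19.6% of all probes passed. The drug in wild type cells went against the order of Mitf, which was lower there (log2 -0.44). In that comparison 6 were higher and 1 lower (median 0.24, or 0.18 with bounds), where 21.3% of all probes passed. That count of 7 ran from 4 to 7 over the alternatives. The list was chosen with results of these arrays known, so its direction is no independent evidence.

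Tpsb2 shows the pattern. It read 22667, 25537 and 21563 in mast cells, 9071, 9722 and 7723 in treated floxed, 1183, 1167 and 1327 in untreated wild type, 642, 623 and 634.5 in treated wild type, 885, 1145 and 1137 in untreated floxed, and 123, 102 and 100.1 in fresh basophils. Only the 2 untreated genotypes lay close together. The treated floxed cells were higher than treated wild type cells by a log2 fold change of 3.76 (SE 0.12, adjusted p = 4.99e-13). Tpsb2 has a close paralog, Tpsab1, whose own probe was at background throughout; how far a probe reads both is not known from the files used here.

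Tph1, which makes serotonin, Cma1, a chymase, and Mcpt2, a mucosal mast cell protease, gave the largest differences between fresh basophils and mast cells. Mcpt2 and Tph1 were at background in fresh basophils, hence at least 683-fold and at least 559-fold higher in mast cells, whose means were 20585 and 16784. Cma1 averaged 86.4 in fresh basophils and 27943 in mast cells (log2 -8.10, SE 0.080, adjusted p = 1.90e-19). In treated floxed cells Tph1 reached 8277 and Cma1 26829, against 2297 and 11072 in treated wild type cells. Mcpt2 did not follow, at 1298 against 1080 (log2 0.24, not past the test), and it was 45.4 in untreated floxed cells.

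The other direction was taken by Hdc and Itga4. Hdc, which makes histamine, read 308, 322 and 314 in mast cells and 20515, 21177 and 20392 in untreated wild type basophils, a log2 difference of 5.97 (SE 0.079, adjusted p = 2.55e-18). It fell with loss of Cebpa, by 0.29 on the log2 scale, against the rise of Mitf. Itga4, an integrin chain, was higher in fresh basophils than in mast cells (217 against 52.0) and higher again in treated floxed than in treated wild type cells (342 against 119; log2 1.41, SE 0.14, adjusted p = 8.10e-07).

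**Figure D3:**
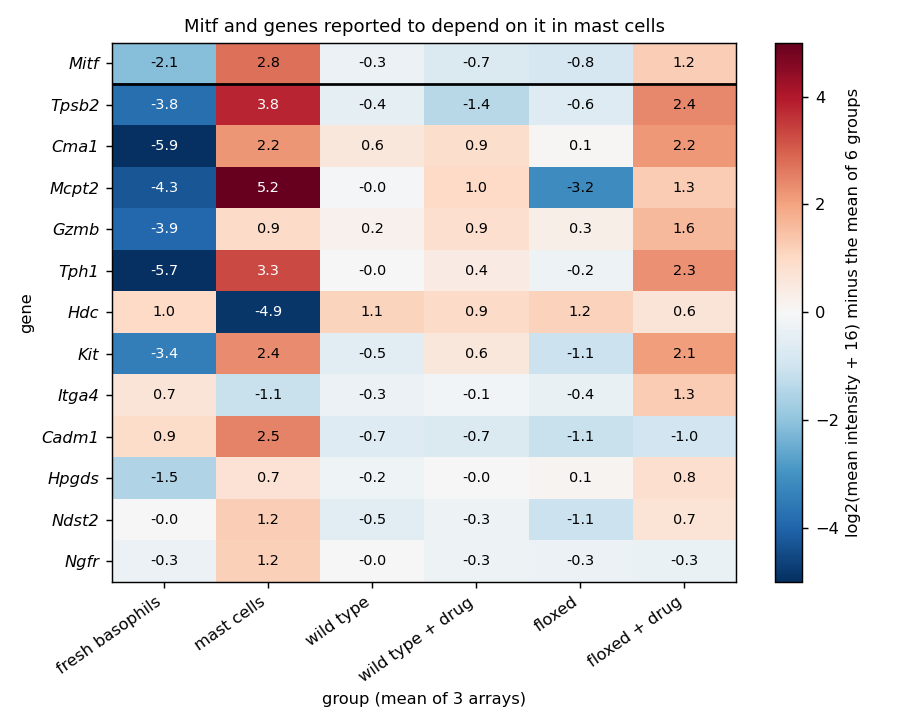
Log2(mean intensity + 16) of Mitf and 12 genes reported to depend on it in mast cells, in each of the 6 groups (3 arrays each), minus the gene's mean over the groups, with the value printed in each cell and colours that end at 5 and -5. The top row, Mitf, runs from -2.1 in fresh basophils to 2.8 in mast cells, and Hdc runs the other way, from 1.0 to -4.9; Mcpt2 and Tph1 were at background in fresh basophils.

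Pigment cell targets were mostly dim. Of 16 measured, 8 had a mean of 30 or more, and the melanin enzymes Tyr and Dct were at background in all 6 groups. Fresh basophils had 5 higher and 2 lower than mast cells, cultured wild type basophils 3 and 5 (1 of these, Mc1r, at background in both groups), and treated floxed over treated wild type cells 2 and 5. Of all probes 40.6%, 39.2% and 30.7% passed there, and of genes with a mean of 30 or more 64.0%, 63.9% and 52.6%. Medians were 0.22, -0.10 and -0.19, beside -0.044, -0.045 and -0.0041 for all probes, each 0 with genes at background set to their bounds. Tyrp1, another melanin enzyme, read 573, 458 and 646 in mast cells and 77.6, 75.4 and 79.6 in fresh basophils (log2 -2.61, SE 0.10, adjusted p = 1.10e-12). It did not rise with Mitf in treated floxed cells, at 54.4 against 82.1 in treated wild type, a log2 difference of -0.47. Bcl2, which protects cells from death, was lower in fresh basophils than in mast cells (196 against 797). Bcl2 was higher in treated floxed than in treated wild type cells (492 against 261, log2 0.87, SE 0.090, adjusted p = 1.04e-06). Untreated floxed cells already read 526, and the drug effect in floxed cells (log2 -0.095) did not pass the test. The difference between the drug effects in the 2 genotypes, 0.14, did not pass either. Tyrp1 and Bcl2 were the 2 lower in fresh basophils than in mast cells. Met, which had the largest difference there, and Gpnmb were among the 5 higher.

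The sites that MITF is known to bind in pigment genes hold the letters TCATGTG, and are shown beside the 1 site found in the mast cell list. The letters stood in 250-base windows of 6 of 12 pigment genes with a promoter in the table (50%). They stood in 1 of 11 genes of the mast cell list (9.09%), beside 3.72% of all 27025 genes. Such sites are known from the pigment genes, so their share is no independent evidence. With 11 genes, 1 match cannot set the mast cell share above or below that of all genes. Capitals mark the letters, and each line is read on the strand of its gene:

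Tyr, chr7:87493516-87493545, minus strand: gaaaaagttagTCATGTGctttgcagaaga
Tyrp1, chr4:80834155-80834184, plus strand: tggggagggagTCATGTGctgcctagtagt
Dct, chr14:118052379-118052408, minus strand: tgcacttagggTCATGTGctaacaaagagg
Hpgds, chr6:65144793-65144822, minus strand: actcgtgcatcTCATGTGagaaaggcagga

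Tyr and Tyrp1 carry the same letters near their starts, 22 and 47 bases before, although 1 was at background in mast cells and the other was not. Hpgds, prostaglandin D synthase, averaged 522 in mast cells, 96.1 in fresh basophils and 564 in treated floxed cells.

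Targets known from osteoclasts and macrophages, where TFEC and TFE3 also act, included Gpnmb and Ctsk, both brighter in basophils than in mast cells. Of 8 measured, 5 were higher and 2 lower in fresh basophils than in mast cells (median log2 1.11), 5 higher and 1 lower in cultured wild type basophils (median 1.24, or 0.72 with bounds), and 1 higher and 3 lower in treated floxed over treated wild type cells (median -0.42, or -0.23 with bounds). All probes had medians of -0.044, -0.045 and -0.0041, and 64.0%, 63.9% and 52.6% of genes with a mean of 30 or more passed. Gpnmb, a glycoprotein of osteoclasts and pigment cells, read 3951, 3979 and 3784 in untreated wild type basophils and 101, 105 and 103 in mast cells (log2 5.04, SE 0.078, adjusted p = 9.49e-18). Ctsk, the collagen-degrading cathepsin K, averaged 625 against 76.1 there (log2 2.80, SE 0.091, adjusted p = 9.35e-14). In treated floxed cells Gpnmb was lower by -1.28 and Ctsk by -0.95 on the log2 scale, and untreated floxed cells were already lower than untreated wild type, by -1.13 and -1.06. The macrophage markers given above stand beside these genes as well, and their part was not tested.

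Genes of lysosomes and autophagy reported as TFEB targets were mostly bright, with all 29 measured of 32 listed at a mean of 30 or more. In cultured wild type basophils 19 were higher and 3 lower than in mast cells (median log2 0.54, beside -0.045 for all probes), and in fresh basophils 11 were higher and 12 lower than in mast cells (median -0.13, beside -0.044), where 63.9% and 64.0% of genes with a mean of 30 or more passed. None was higher and 22 were lower in fresh than in cultured wild type basophils (median -0.56, beside -0.012), where 59.1% of genes with a mean of 30 or more passed. Treated floxed cells had 4 higher and 14 lower than treated wild type cells (median -0.22, beside -0.0041), where 52.6% passed. Untreated floxed cells already had 3 higher and 9 lower than untreated wild type cells (median -0.15, beside 0.0023), where 28.3% passed. For the drug in floxed cells 5 were higher and 6 lower (median -0.019, beside -0.0027), where 34.1% passed.

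Gla, the lysosomal alpha-galactosidase, read 10427, 10340 and 10133 in untreated wild type basophils, 671, 675 and 714 in mast cells, 9563, 9421 and 9870 in treated wild type and 4040, 4451 and 4229 in treated floxed cells. No array of these groups overlapped another group. Its log2 differences were 3.88 against mast cells (SE 0.077, adjusted p = 1.75e-16) and -1.18 with loss of Cebpa (SE 0.077, adjusted p = 4.02e-09). Cln3, a lysosomal membrane protein, averaged 1283 in treated wild type and 486 in treated floxed cells (log2 -1.37, SE 0.078, adjusted p = 7.41e-10). Atp6v0d2, a subunit of the proton pump of osteoclasts, averaged 555 and 219 in these groups (log2 -1.28, SE 0.11, adjusted p = 1.00e-07). Set against untreated floxed cells, the drug raised Cln3 (log2 0.35), and Atp6v0d2 did not pass the test (log2 0.14).

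Sgsh and Naglu were among the 4 members that were higher in treated floxed than in treated wild type cells. Sgsh, a sulfatase of heparan breakdown, rose from 936 to 1627 with loss of Cebpa (log2 0.78) and was lower in fresh basophils than in mast cells (323 against 1718; log2 -2.35, SE 0.091, adjusted p = 7.84e-13). Naglu, an enzyme of the same breakdown, was 0.83 higher on the log2 scale in treated floxed cells and 0.65 higher in untreated floxed cells. Sqstm1, the autophagy receptor p62, was lower in fresh basophils than in mast cells (671 against 3106, log2 -2.18). It was also lower in treated floxed than in treated wild type cells (4847 against 6458, log2 -0.42). In floxed cells, however, the drug raised Sqstm1 from 2507 to 4847 (log2 0.95). The difference between the drug effects in the 2 genotypes, -0.16, did not pass the test.

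**Figure D4:**
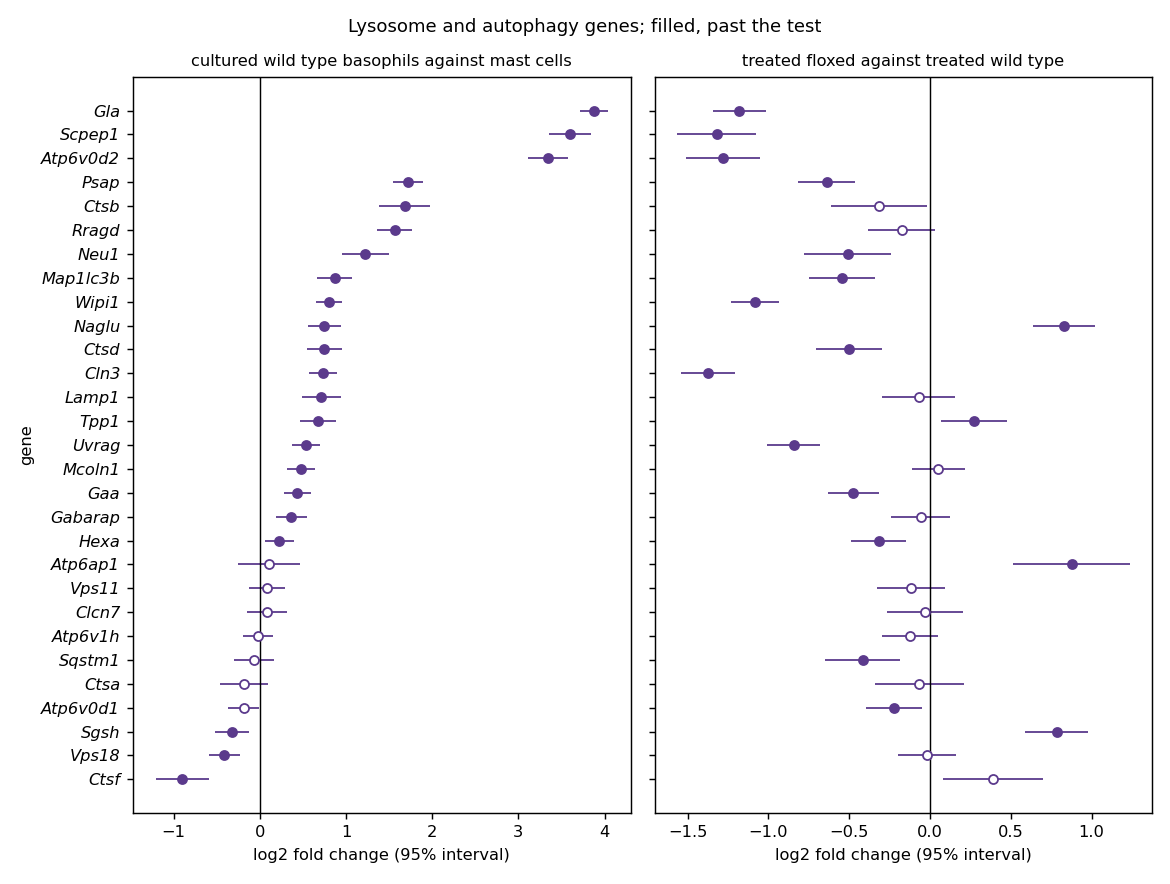
Log2 fold change with its 95% interval for the 29 lysosome and autophagy genes, at left in cultured wild type basophils against mast cells and at right in treated floxed over treated wild type cells; filled points passed the test. At left 19 genes are higher and 3 lower, from Gla at 3.88 downward, and at right 4 are higher and 14 lower.

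The E-box that TFEB and TFE3 read in such genes has the core letters CACGTG, and the sites of genes named here or known as targets are printed for that reason. The letters stood in the windows of 11 of 25 genes of the list with a promoter in the table (44%), of 0 of 11 in the mast cell list and of 6.86% of all genes. The list was drawn up as genes reported to carry such sites, so its share is no independent evidence. They equal their own reverse complement, so both strands are covered. Capitals mark the core:

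Gla, chrX:134601182-134601211, minus strand: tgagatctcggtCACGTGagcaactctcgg
Cln3, chr7:126583340-126583369, minus strand: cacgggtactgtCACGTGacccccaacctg
Ctsd, chr7:142387908-142387937, minus strand: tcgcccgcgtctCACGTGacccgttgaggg
Mcoln1, chr8:3500462-3500491, plus strand: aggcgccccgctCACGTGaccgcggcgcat
Gaa, chr11:119267811-119267840, plus strand: tttctgtgcgatCACGTGtttgactctgac
Naglu, chr11:101070009-101070038, plus strand: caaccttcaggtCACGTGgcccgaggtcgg
Sgsh, chr11:119355522-119355551, minus strand: gggcctgccgtgCACGTGaccgtggggagc

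Genes with the core did not differ as 1 block between treated floxed and treated wild type cells. Gla, Cln3, Ctsd and Gaa were lower in treated floxed cells, at log2 differences of -1.18, -1.37, -0.50 and -0.47, and Naglu and Sgsh were higher, at 0.83 and 0.78. Mcoln1, a lysosomal calcium channel, gave 0.05 and did not pass the test. Set against untreated floxed cells, the drug lowered Gla (log2 -1.08) and raised Cln3 (0.35), Gaa (0.30) and Sgsh (0.28). Ctsd (0.15), Naglu (-0.055) and Mcoln1 (-0.053) did not pass the test there. Ctsd encodes cathepsin D and Gaa the acid alpha-glucosidase.

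Of the proteins that hold TFEB and TFE3 in the cytoplasm or release them, all 28 listed were measured. They include the Rag GTPases, the Ragulator complex, folliculin, mTORC1 and calcineurin. In fresh basophils against mast cells 6 were higher and 12 lower (median log2 -0.23, or -0.21 with bounds), in cultured wild type basophils 4 and 12 (median -0.14), and in treated floxed over treated wild type cells 10 and 2 (median 0.013, or 0.0043 with bounds). The medians of all probes were -0.044, -0.045 and -0.0041, and 64.0%, 63.9% and 52.6% of genes with a mean of 30 or more passed. The last count of 12 was 6 with median scaling and 7 with the compared groups fitted alone. Fnip1, a partner of folliculin, was lower in fresh basophils than in mast cells (954 against 2755; log2 -1.52, SE 0.084, adjusted p = 1.12e-10), as was Lamtor3 of the Ragulator complex (466 against 1047; log2 -1.15). Rptor, the substrate adaptor of mTORC1, averaged 3285 in untreated wild type basophils, 5592 in mast cells and 5756 in treated floxed cells.

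The 18 listed E-box factors with a leucine zipper outside the family were the nearest comparison for the family. In fresh basophils against mast cells 6 were higher and 4 lower (median log2 0.11), in cultured wild type basophils 4 and 8 (median -0.13), and in treated floxed over treated wild type cells 2 and 6 (median -0.059, or -0.023 with bounds); the first 2 medians were 0 with genes at background set to their bounds. The medians of all probes were -0.044, -0.045 and -0.0041, and 40.6%, 39.2% and 30.7% of all probes passed (64.0%, 63.9% and 52.6% of genes with a mean of 30 or more). Mxd1, a repressor that competes with MYC, read 2362, 2194 and 2496 in treated wild type and 602, 377 and 481 in treated floxed cells (log2 -2.26, SE 0.14, adjusted p = 2.14e-09). Set against untreated floxed cells, the drug lowered Mxd1 from 730 to 486 (log2 -0.59). The difference between the drug effects in the 2 genotypes was -0.77 (limma, adjusted p = 0.0158). Mycn read 813, 849 and 669 in mast cells and at most 59.9 elsewhere (log2 -3.63 for fresh basophils against mast cells, SE 0.19, adjusted p = 6.92e-11). Mycn did not rise with Mitf in treated floxed cells (46.1 against 44.4).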

How the data were processed

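The authors deposited linear probe intensity values of 18 single-dye arrays. Per the labels' protocols, total RNA from Trizol and an RNeasy kit carried a cyanine dye. Not given in the sources used here are the scanner software and any earlier normalization. The values are whole numbers from -9 up, with medians of 24 to 42 and highest values of 65465 to 65478 per array. Precision is limited by the number of arrays.

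The platform annotation gave 1 gene symbol for 21876 of 26423 probes and none for 4547, and of several probes the one with the highest mean over 18 arrays stood for a gene. Deposited intensities were quantile normalized over all 18 arrays, transformed as log2(intensity + 16) and fitted with limma's lmFit and eBayes (version 3.58.1, R 4.3.3, 6 group means, two-sided, Benjamini-Hochberg over 26423 probes, threshold 0.05). Fold changes are on this log2 scale, which understates those of dim genes. A gene at background in a group has only a bound, its brighter mean over values raised to 30. The script was tested on simulated data.

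P-values measure the spread between the 3 arrays of a group, which may be technical. Replicate numbers did not pair arrays: in 0 of 15 pairs of groups were all 3 correlations of same-numbered deviations over 0.1 (range -0.24 to 0.22).

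Named were the 4 members and Cebpa, up to 4 members of each gene list with the largest change past the test in each of 3 comparisons (mast cells with fresh and with cultured wild type basophils, and treated floxed with treated wild type cells), and the 5 genes most like each member (for Mitf also the 5 least like). Gata2, Pax3, Lef1, Mcpt9, Tpsab1, Hpgds, Ndst2, Gzmb, Mc1r, Tyr, Dct, Naglu, Ctsd, Gaa, Mcoln1 and marker genes fall outside that rule and were picked with their values in view. The members and lists were chosen with earlier results of these data known. Promoter sequences came from RefSeq (GRCm38.p6), with 111 of 136 listed genes in the table. Alternatives were median scaling, no normalization, scaling on probes at 30 or more, an offset of 50, leaving out the dimmest 30% of probes, an intensity trend, a replicate block, the compared groups alone, averaged probes and each array left out; background limits of 20 and 50 were added after seeing the data.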

Additional observations from a re-analysis of the deposited data

Results flagged for a closer look

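The effect of 4-hydroxytamoxifen differed between floxed and wild type cells, by the test of the difference itself (limma, adjusted p under 0.05), for 3 of the 4 family members, for Cebpa and for 8 genes of the mast cell list. On the log2 scale, floxed minus wild type, Mitf gave 2.51, Tfec -1.66 and Tfe3 -0.71. Cebpa, the deleted gene, gave -3.85. Among genes reported to depend on MITF in mast cells, the differences were 3.98 for Tpsb2, 3.38 for Mcpt2, 2.06 for Kit, 2.05 for Tph1, 1.77 for Cma1, 1.50 for Itga4, 1.48 for Ndst2, a heparin-modifying enzyme, and 0.66 for Gzmb, granzyme B. Mcpt2 averaged 45.4 in untreated floxed cells, 519 in untreated wild type, 1298 in treated floxed and 1080 in treated wild type cells. Outlying arrays were not looked for, since every group held 3.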

How the results depend on the processing

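Of 36 comparisons of a family member, 24 passed the test, and 19 of these kept their direction and their call under every alternative run. Over their 378 alternative fits 373 gave the same call, 5 lost it and 0 reversed. With median scaling, Mitf lost its call for the drug in wild type cells (-0.34, adjusted p = 0.146) and in untreated floxed cells (-0.33, adjusted p = 0.167), Tfec lost it in untreated floxed cells (-0.26, adjusted p = 0.309), and Tfe3 there turned to 0.021. Without normalization Tfe3 lost its call for the drug in wild type cells (0.27, adjusted p = 0.0757) and for the difference of drug effects (-0.46, adjusted p = 0.0506), passed in fresh basophils against mast cells (0.65, adjusted p = 5.28e-05), and Tfeb for the drug in floxed cells turned to 0.012. The cause was not tested.

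With 1 array left out, Tfe3 for the drug in floxed cells ran from -0.35 to -0.15, passing without untreated floxed replicate 2 (-0.35, adjusted p = 0.0400). Tfeb, near background, changed sign in 6 comparisons and passed in none: -0.012 to 0.41 for fresh basophils against mast cells, -0.51 to 0.010 for cultured wild type basophils against mast cells, -0.24 to 0.43 for the drug in wild type cells, -0.12 to 0.11 for the drug in floxed cells, -0.42 to 0.0076 for untreated floxed against wild type cells and -0.44 to 0.23 for the difference of drug effects.

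Probes past the test for the drug in wild type cells numbered 5624, or 3556 with median scaling, and for the difference of drug effects 3338, or 1893. The share of called probes that were higher depended on the scaling. With median scaling it went from 50.4% to 62.7% in fresh against cultured wild type basophils, from 50.6% to 35.3% for the drug in floxed cells, from 52.4% to 68.6% for the drug in wild type cells, from 54.0% to 74.2% in untreated floxed cells and from 48.8% to 24.6% for the difference of drug effects. Without normalization these shares were 77.8% (45.1% with it) for fresh basophils against mast cells, 66.8% (43.1%) for cultured wild type basophils against mast cells, 64.4% for fresh against cultured wild type basophils, 62.1% (51.6%) for treated floxed over treated wild type cells, 22.7% for the drug in wild type cells, 33.6% in untreated floxed cells, 65.4% (44.5%) for treated floxed cells against mast cells and 78.4% for the difference of drug effects. Scaling on probes at 30 or more gave 41.5% in untreated floxed cells. The median of all probes moved from -0.044 to 0.16 in fresh basophils against mast cells without normalization.

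With the replicate number as a block, 3068 to 10635 probes passed in the 9 comparisons, beside 3338 to 10719 without the block, and no call of a family member changed; since the numbers do not pair the arrays, this says nothing of a weaker effect. At a background limit of 20 Tfeb was at background in 2 groups and at 50 in all 6, and at 50 Tfec was at background in mast cells.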
